A study of Mus musculus with 8 samples.

Results

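The 4 mouse Hox clusters hold 39 protein-coding genes, chosen as every protein-coding gene of GENCODE release M21 on mm10 whose symbol is Hox followed by a, b, c or d and a number, out of 21951 protein-coding genes in all. Each cluster was examined from its first to its last Hox gene with 20 kb added on each side. The Hoxa window was chr6:52135590-52280880 with 11 genes, the Hoxb window chr11:96174316-96388256 with 10 genes, the Hoxc window chr15:102901103-103056852 with 9 genes and the Hoxd window chr2:74648310-74785142 with 9 genes, 651.8 kb together.

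Open chromatin was read out by ATAC-seq, a method whose transposase cuts exposed DNA and adds sequencing adapters to it, in 8 libraries of the SN4741 line, 4 at each temperature and each made from 50000 cells. SN4741 is 1 line, reported as clonal, made from the substantia nigra of embryos of transgenic mice, in which the tyrosine hydroxylase promoter drives a temperature-sensitive SV40 T antigen. The labels give the genotype as WT and the cell type as neural precursor cells, and the study found the line to be unstable in karyotype. The 37 °C group grew undifferentiated in 10% serum, and the 39 °C group was held for 48 h at the non-permissive temperature in 0.5% serum, so temperature and serum cannot be told apart. Because nothing says that the 4 libraries of a group came from separate cultures, p-values measure only the spread between these libraries, which may be technical.

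Hox genes encode homeodomain transcription factors that give the cells of the embryo their position along the head to tail axis. Their order on the chromosome follows the order in which they are used, with paralogues 1 to 3 at the anterior end of a cluster, 4 to 8 in the middle and 9 to 13 at the posterior end. In the nervous system Hox genes are used in the hindbrain and spinal cord, and the midbrain and forebrain normally keep the clusters silent under Polycomb repression. Their promoters are rich in CpG dinucleotides, and Trithorax proteins such as Kmt2a keep them active where they are in use.

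The strongest open region of each cluster, by its mean percentile over the libraries that called it, is shown with a region at Hoxa10 that all 4 libraries called at 37 °C and none called at 39 °C. Each run is 200 bases of mm10 around the summit of the region, or the nearest 200 bases of it that hold no annotated UTR, with every CpG in capitals.
Hoxa7 promoter, upstream of the start site, chr6:52221855-52222054, plus strand: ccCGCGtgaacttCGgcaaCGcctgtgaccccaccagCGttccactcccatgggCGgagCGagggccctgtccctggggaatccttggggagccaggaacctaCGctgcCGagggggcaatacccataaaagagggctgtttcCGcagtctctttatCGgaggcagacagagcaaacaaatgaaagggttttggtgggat
Hoxb cluster, intron of the noncoding gene Gm53 upstream of Hoxb9, chr11:96260388-96260587, plus strand: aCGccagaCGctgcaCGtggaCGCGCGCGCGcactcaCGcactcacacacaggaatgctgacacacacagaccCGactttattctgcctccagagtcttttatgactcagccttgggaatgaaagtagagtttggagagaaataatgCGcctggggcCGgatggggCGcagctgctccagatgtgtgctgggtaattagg
Hoxc cluster, between Hoxc9 and Hoxc8, chr15:102987531-102987730, plus strand: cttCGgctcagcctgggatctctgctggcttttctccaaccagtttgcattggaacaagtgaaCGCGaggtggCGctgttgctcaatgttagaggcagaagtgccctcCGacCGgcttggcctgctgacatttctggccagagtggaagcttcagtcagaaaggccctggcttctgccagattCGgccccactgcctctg
Hoxd cluster, intron of Hoxd3 and Hoxd4, chr2:74715863-74716062, plus strand: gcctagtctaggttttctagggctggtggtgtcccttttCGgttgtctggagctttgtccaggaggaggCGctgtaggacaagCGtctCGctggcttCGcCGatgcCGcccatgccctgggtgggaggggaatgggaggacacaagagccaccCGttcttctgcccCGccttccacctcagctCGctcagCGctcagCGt
Hoxa10, coding exon, called only at 37 °C, chr6:52232622-52232821, plus strand: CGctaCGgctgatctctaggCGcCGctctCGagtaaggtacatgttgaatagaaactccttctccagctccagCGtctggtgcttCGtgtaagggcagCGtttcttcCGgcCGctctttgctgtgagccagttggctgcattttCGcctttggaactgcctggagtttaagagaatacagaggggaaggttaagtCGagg
These 5 runs hold 11, 13, 7, 12 and 12 CpGs in that order, so the region between Hoxc9 and Hoxc8 has the fewest.

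Peaks were called in all 4 clusters at 37 °C, and fewer at 39 °C. The 4 windows held 51, 45, 40 and 58 peaks in replicates 1 to 4 at 37 °C and 23, 27, 32 and 20 at 39 °C. The groups did not overlap, with means of 48.5 ± 7.77 and 25.5 ± 5.20 (SD, n = 4 each). An exact permutation test, two-sided and over all 70 assignments of the libraries, gave p = 0.0286, the lowest value that 4 against 4 can reach. In the full lists the Hoxc window held the most peaks at 37 °C, 19.2 ± 4.42 against 9.75 ± 0.957 at 39 °C (SD, n = 4 each). The Hoxb window held 13.2 ± 1.26 and 9 ± 1.155, and the Hoxa window 11.2 ± 1.26 and 6 ± 2.58. The Hoxd window, the barest, had 5, 5, 3 and 6 peaks at 37 °C and 0, 1, 2 and 0 at 39 °C. Each cluster gave an exact permutation p of 0.0286, also after Benjamini-Hochberg adjustment over the 4 clusters. The exact p rose to 0.0571 for Hoxa without any 1 library at 37 °C, for Hoxc without any 1 library at 39 °C, and for Hoxd without 39 °C replicate 1, 2 or 4. With peaks of −log10 q of at least 5 the Hoxa difference was -3 peaks (exact p = 0.114) instead of -5.25. The differences were then -16.75 over all 4 windows, -3.5 in Hoxb, -7.75 in Hoxc and -2.5 in Hoxd, each at exact permutation p = 0.0286.

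These differences depend on how far down each list goes. The lists held 74026 to 92013 peaks at 37 °C and 54845 to 68410 at 39 °C, and 2 libraries at 37 °C, replicates 1 and 4, were deeper than the rest, with 169 and 158 M fragments (M for mega) kept by the caller against 49.8 to 71.2 M in the other 6. When every list was held to its 54845 highest peaks by −log10 q, the length of the shortest, the windows averaged 18.2 ± 2.22 peaks at the lower temperature and 17.2 ± 2.63 at the higher (SD, n = 4 each), which the exact permutation test did not separate (p = 0.629). This cut takes away the weakest peaks of every longer list. Hox promoter peaks were weak, with median percentiles of 21.4 to 31.3 at 37 °C. The cut therefore could not show whether weak peaks were lost at 39 °C, which was not tested. With equal numbers the Hoxb window held the most peaks, a mean of 7.25 at both temperatures, against 5.75 and 6.25 in Hoxc at 37 and 39 °C. Without the 2 deep libraries the groups still did not overlap, 45 and 40 peaks against 20 to 32, a design whose smallest exact p is 0.0667.

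**Figure D1:**
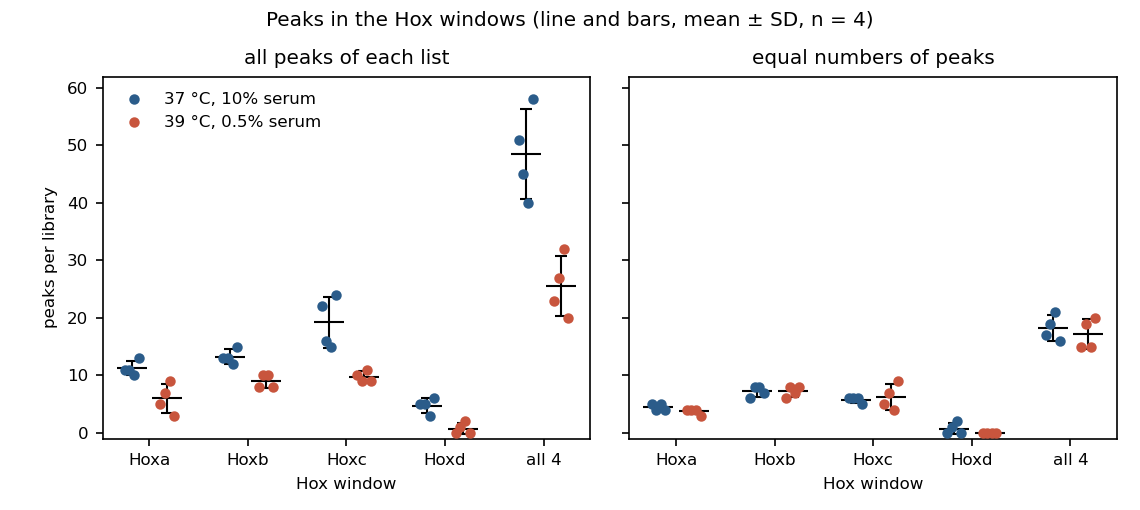
Peaks per library (vertical axis) in each Hox window and in all 4, at 37 °C in 10% serum (blue) and 39 °C in 0.5% serum (red), with all peaks of each list (left) and with the 54845 highest peaks of each list (right); points are libraries, lines and bars the mean ± SD, n = 4. The groups are apart on the left, with 40 to 58 against 20 to 32 peaks in all, and overlap on the right.

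Peaks also covered less of the windows at 39 °C. They covered 5.80% ± 1.47 of the 4 windows in the 37 °C libraries and 3.00% ± 0.625 in the 39 °C libraries (SD, n = 4 each; p = 0.0286, exact permutation test). The highest share was in the Hoxc window, 10.2% ± 2.57 against 4.74% ± 0.583 (SD, n = 4 each), and the lowest in the Hoxd window, 1.80% ± 0.662 against 0.175% ± 0.222, with 5.96% ± 1.56 against 3.18% ± 1.1 in the Hoxa window. Covered length in the Hoxb window, 5.02% ± 1.26 against 3.42% ± 0.738, was the 1 of the 4 that did not separate (exact permutation p = 0.0857), and the other 3 had adjusted p = 0.0381. Relative to all that a library covered, the windows took 330 ± 26.9 bp per Mb in the 37 °C libraries and 242 ± 26.4 in the 39 °C libraries (SD, n = 4 each; p = 0.0286, exact permutation test). On this scale Hoxc (139 against 92.2 bp per Mb) and Hoxd (21.4 against 2.92) kept non-overlapping groups, with exact p = 0.0286 and adjusted p = 0.0571, while Hoxa (75.5 against 56.5, exact p = 0.0857) and Hoxb (93.7 against 90.5, exact p = 0.657) overlapped. The Hoxa difference of -18.96 bp per Mb was -11.7 without 39 °C replicate 4 and -24.2 without 39 °C replicate 3 (exact p = 0.0286). Without any 1 library at 39 °C the exact p for covered length was 0.0571 over all 4 windows and in the Hoxa, Hoxc and Hoxd windows (0.0857 in Hoxa without replicate 4, and 0.114 in Hoxa with peaks of −log10 q of at least 5), as it was for the share without 39 °C replicate 4. With equal numbers of peaks the difference in covered length over all 4 windows was -3131 bp (exact permutation p = 0.0857) instead of -18242. The share over all 4 windows then turned, to 191 bp per Mb at 37 °C and 200.3 at 39 °C (exact permutation p = 0.371).

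**Figure D2:**
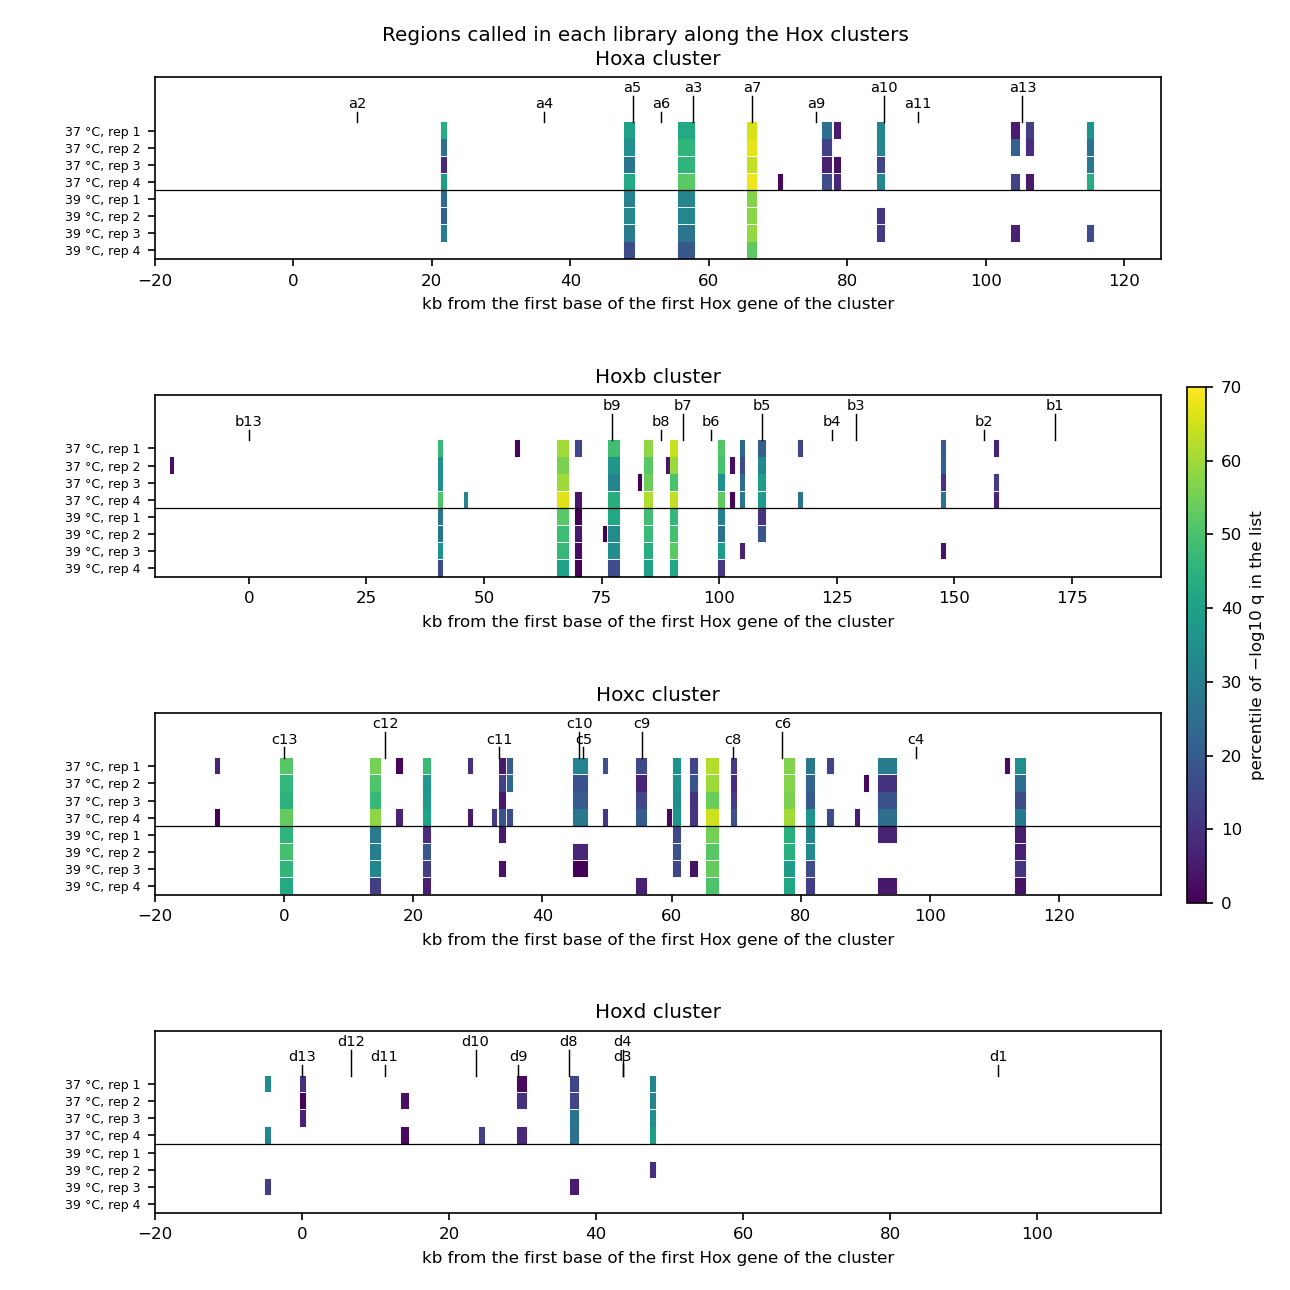
Regions called in each library along the 4 clusters (horizontal axis, kb from the first base of the first Hox gene; rows, libraries), colored by the percentile of the peak's −log10 q within its list, with ticks at the 5′ ends of the Hox genes; 1 gene and its region are not drawn. Continuous columns run through all 8 libraries at Hoxa7, Hoxb9 and Hoxc13, whereas the Hoxd rows at 39 °C hold 3 region calls in all.

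Peaks of all libraries that overlapped were merged into regions, and a region called in at least 2 libraries was kept as a consensus region. The windows held 63 merged regions and 50 consensus regions, of 84777 in the genome: 11 in the Hoxa window, 13 in Hoxb, 20 in Hoxc and 6 in Hoxd. All 50 were called by at least 2 libraries at 37 °C, and 25 of them also by at least 2 at 39 °C. The other 25 (50.0%) were called by at least 2 libraries at 37 °C alone, against 27% of all consensus regions, and none by at least 2 at 39 °C alone, against 3.03%. All 6 Hoxd regions belonged to those 25, together with 5 in Hoxa, 5 in Hoxb and 9 in Hoxc. By Fisher's exact test, adjusted by Benjamini-Hochberg over all regions, 0 of the 84777 passed (smallest adjusted p = 0.450), and 5386 had an unadjusted p below 0.05, so single regions are given as counts of libraries.

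Called in 4 libraries at 37 °C and 0 at 39 °C were 2 regions (4.00%, against 6.04% of all consensus regions). The first, chr6:52232035-52233298, had its summit in a coding exon of Hoxa10 and reached within 1 kb of annotated start sites of Hoxa10 and Hoxa9, with percentiles of 25.7, 13.3, 6.36 and 16.2 in the 4 libraries at 37 °C. The other, chr15:102990379-102991074, lay over the start of Hoxc8, a gene of the brachial spinal cord, with percentiles of 11.7, 8.75, 12.3 and 16.99. Both were thus among the weaker peaks of their lists (100 is the strongest), and neither was left as such with equal numbers of peaks. The reverse pattern had 0 regions (0.314% of all consensus regions). Only 1 consensus region was called in more libraries at 39 °C, chr11:96263876-96264915 in an exon of Gm53, with 2 libraries at 37 °C, the deep ones, at percentiles of 14.9 and 4.29, and 4 at 39 °C at 0.148, 4.42, 2.41 and 0.974. Its peak also served the start of Mir196a-1, a microRNA of the cluster whose family targets Hox transcripts, called in the same 2 and 4 libraries.

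At the promoters, a gene was counted as open in a library when a peak lay within 1 kb of any of its annotated start sites. Of the 39 genes, 23, 23, 19 and 24 were open at 37 °C and 11, 12, 16 and 9 at 39 °C. The groups did not overlap, with 57.1% ± 5.69 of the genes open at 37 °C and 30.8% ± 7.55 of them at 39 °C (SD, n = 4 each; p = 0.0286, exact permutation test), beside 66.4% ± 1.21 and 62.2% ± 1.18 of all protein-coding genes (exact permutation p = 0.0286). Per 1000 protein-coding genes with a promoter peak, a scaling chosen after the data were seen, Hox genes numbered 1.52 ± 0.132 in the 37 °C group and 0.877 ± 0.203 in the 39 °C group (SD, n = 4 each; p = 0.0286, exact permutation test). When lists were held to the same length the counts were 7, 8, 9 and 7 of the 39 at 37 °C and 6, 7, 6 and 9 at 39 °C, and the groups overlapped (exact permutation p = 0.571).

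By gene, 24 of the 39 (61.5%) were open in at least 2 libraries at 37 °C, against 67.2% of all protein-coding genes, and 13 (33.3%) in at least 2 at 39 °C, against 62.9%. In all 8 libraries 8 were open (20.5%, against 59.9%), and in none 13 (33.3%, against 31.4%). No Hox gene was open in more libraries at 39 °C, 18 were open in fewer, and 15 (38.5%) in at least 2 fewer, against 5.07% of all protein-coding genes. With equal numbers of peaks 8 Hox genes were open in at least 2 libraries at 37 °C, 6 in at least 2 at 39 °C and 25 in none. Hoxc4, Hoxc5 and Hoxc9 were then each open in 0 libraries at 37 °C and 1 at 39 °C, and 1 gene, Hoxc12, was open in at least 2 fewer. One gene, Hoxc8, was open in 4 libraries at 37 °C and 0 at 39 °C (2.56%, against 1.46%).

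**Figure D3:**
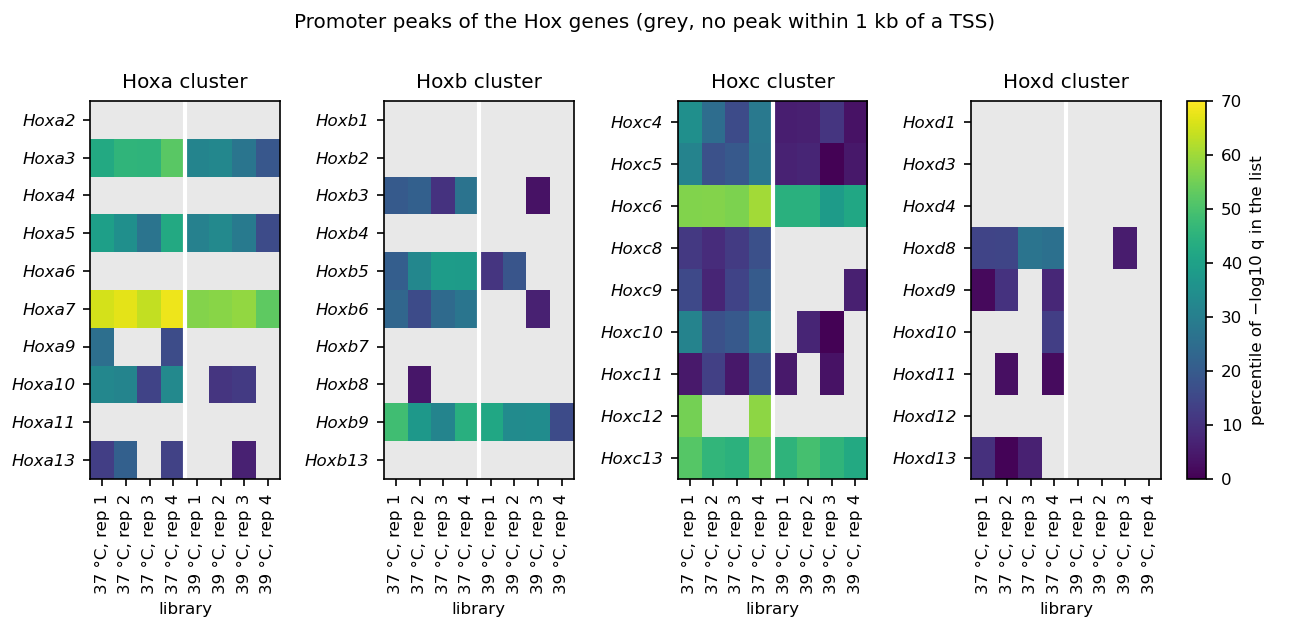
Percentile of the promoter peak's −log10 q within its list (color) for the Hox genes of the 4 clusters (rows, 1 gene not drawn) in each library (columns, 37 °C left of the white line and 39 °C right of it), with grey where no peak lay within 1 kb of a start site. Hoxa7 is the brightest row, at 52.6 to 68.3, and no Hoxd gene is colored in more than 1 library at 39 °C.

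The clusters differed in which genes were open. All 9 Hoxc genes were open in at least 2 libraries at 37 °C and 6 at 39 °C, 7 and 5 of the 11 Hoxa genes, 4 and 2 of the 10 Hoxb genes, and 4 and 0 of the 9 Hoxd genes. Along the axis, 3 of the 8 genes of paralogues 1 to 3 were open in at least 2 libraries at 37 °C and 2 at 39 °C. Of the 15 genes of paralogues 4 to 8 these counts were 9 and 6, and of the 16 posterior genes of paralogues 9 to 13 they were 12 and 5. A loss of at least 2 libraries thus fell on 10 of the 16 posterior genes, 4 of the 15 central genes and 1 of the 8 anterior genes. The share over all protein-coding genes was 5.07%. Only 12, 9 and 3 of these Hox genes were open in at least 2 libraries at 37 °C, so the 3 groups had unlike numbers to lose. Neighboring genes share chromatin and in places a peak, so the genes are not independent. Hoxa9 and Hoxc12 were among the genes with a loss only through the 2 deep libraries, and with equal numbers of peaks the loss was left at Hoxc12 alone.

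Of the anterior genes, which pattern the hindbrain and the branchial arches, 5 had no promoter peak in any library: Hoxa2, Hoxb1, Hoxb2, Hoxd1 and Hoxd3. Hoxa3, needed for the thymus and parathyroid, was open in all 8 libraries, at 42.5, 45.7, 45.6 and 52.2 at 37 °C and 31.6, 32.4, 27.2 and 19.1 at 39 °C. Its annotated start that reached this peak lies beyond Hoxa6, inside the middle of the cluster. Hoxb3 had percentiles of 19.8, 21.4, 10.4 and 26.6 at 37 °C and was called at 39 °C in replicate 3 alone, at 3.31.

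In the middle of the clusters the strongest Hox promoter was that of Hoxa7, a gene of the thoracic region. Its percentiles were 65.5, 67.0, 63.6 and 68.3 at 37 °C and 57.0, 57.6, 58.6 and 52.6 at 39 °C, with 8.32-fold to 13.8-fold enrichment over the genome-wide background of the library. Next came Hoxc6, which marks brachial motor neurons, at 56.8, 57.1, 56.3 and 60.4 at 37 °C and 44.4, 44.5, 38.5 and 41.8 at 39 °C. Percentiles of both were lower at 39 °C in every library, and a percentile counts all peaks of a list, so a shorter list lowers it for the same peak. Hoxa5, which acts in the lung and in phrenic motor neurons, had percentiles of 39.4, 34.9, 26.8 and 42.5 and then 30.8, 33.1, 28.8 and 15.9. Hoxc4 was at 34.7, 24.9, 16.01 and 28.4 and then at 5.75, 6.24, 10.8 and 3.29, and its groups did not overlap. Neither did those of Hoxa3, Hoxa7, Hoxc5 and Hoxc6, and how many of all genes show this was not computed. The lowest of the genes open in all 8 libraries was Hoxc5, with 31.3, 17.5, 19.4 and 27.8 at 37 °C and 6.78, 7.17, 0.452 and 4.64 at 39 °C. Hoxc5 has an annotated start beside Hoxc10, and its calls combine the region at that start with the one at its own coding exons, each of which was called in 4 libraries at 37 °C and 2 at 39 °C.

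Other central genes were called at 37 °C and rarely at 39 °C. Hoxb5, which is used in the vagal neural crest of the gut, had percentiles of 21.0, 32.5, 38.7 and 38.3 at 37 °C and of 10.9 and 18.5 in replicates 1 and 2 at 39 °C. Hoxb6 was at 23.2, 16.1, 24.1 and 27.2 and, at 39 °C, at 6.31 in replicate 3 alone. Hoxd8 was at 14.3, 14.7, 26.8 and 26.0 and, at 39 °C, at 5.30 in replicate 3 alone. The single calls of Hoxb6 and Hoxd8 at 39 °C came from the replicate with the most peaks of that group. Hoxb8 was called in 1 library, replicate 2 at 37 °C, at 4.15, although a region 1739 bp downstream of its start, chr11:96284024-96285421, was among the strongest of the cluster, at 64.2, 59.5, 49.9 and 63.5 at 37 °C and 46.7, 49.1, 52.2 and 41.8 at 39 °C. Hoxa4, Hoxa6, Hoxb4, Hoxb7 and Hoxd4 had no promoter peak in any library.

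Posterior genes, which pattern the lumbar and sacral levels, the limbs and the genital tract, were called most unevenly. Hoxb9, a thoracic gene, was open in all 8 libraries, at 48.5, 37.3, 31.7 and 44.0 at 37 °C and 41.8, 33.7, 34.2 and 15.9 at 39 °C. Hoxc13, which is needed for hair, was too, at 51.6, 46.2, 44.95 and 53.4 and then at 45.6, 49.4, 45.7 and 42.4, so its groups overlapped. Hoxc9, Hoxc10 and Hoxc11 had weaker peaks than Hoxc13. Hoxc9, which sets thoracic motor columns, was at 15.5, 7.20, 14.2 and 20.0 at 37 °C and, at 39 °C, at 6.14 in replicate 4 alone. Hoxc10, a lumbar gene, was at 31.3, 17.5, 19.4 and 27.8 and, in replicates 2 and 3 at 39 °C, at 7.17 and 0.452. Hoxc11 was at 4.82, 13.3, 4.48 and 17.8 and, in replicates 1 and 3 at 39 °C, at 4.78 and 3.31. For Hoxc12 the call depended on the edge of a peak: a region 1597 bp upstream of its start was called in all 8 libraries, but its peak reached within 1 kb of the start only in the 2 deep libraries, at percentiles of 55.2 and 58.0.

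In the Hoxa cluster Hoxa10, which acts in the uterus and the lumbar skeleton, was at 32.5, 31.6, 14.2 and 33.0 at 37 °C and, in replicates 2 and 3 at 39 °C, at 10.9 and 11.9. Hoxa13, which patterns the digits, was at 13.04, 21.4 and 13.8 in replicates 1, 2 and 4 at 37 °C and at 6.31 in replicate 3 at 39 °C. Hoxa9 was open only in the 2 deep libraries, at 25.7 and 16.2, with its highest peak in the region it shares with Hoxa10. Replicate 4 at 37 °C also had a peak in a coding exon of Hoxa9, at 1.41. Of the posterior Hoxd genes, which act in the limb buds, Hoxd13 was at 9.74, 0.808 and 6.36 in replicates 1 to 3 at 37 °C, Hoxd9 at 1.78, 10.3 and 7.81 in replicates 1, 2 and 4, Hoxd11 at 2.80 and 2.05 in replicates 2 and 4, and Hoxd10 at 12.9 in replicate 4. None of these 4 was called at 39 °C. Hoxa11, Hoxb13 and Hoxd12 had no promoter peak in any library, which completes the 13.

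Hox promoter peaks were weak ones within their lists. Their median percentile ranged from 21.4 to 31.3 at 37 °C and from 11.4 to 30.8 at 39 °C, against 86.9 to 90.8 for the promoter peaks of all protein-coding genes over the 8 libraries. How often genes open at 37 °C were also open at 39 °C was read by strength. Genes entered through their calls at 37 °C and were sorted by their strength there, so a lower share in the weak bands is in part set by that choice, and only Hox genes and other genes of 1 band stand side by side. Among other protein-coding genes open in at least 2 libraries at 37 °C with a median percentile there of at most 20, 93 of 604 (15.4%) were also open in at least 2 at 39 °C, and among Hox genes 1 of 7. Between 20 and 40 these were 417 of 749 (55.7%) and 7 of 11 (63.6%), between 40 and 60 they were 795 of 861 (92.3%) and 4 of 5 (80.0%), and the 1 Hox gene above 60, Hoxa7, was open at both temperatures, as were 97.5% of 1696 genes between 60 and 80. Without bands the shares were 93.4% of 14719 genes and 13 of 24 Hox genes (54.2%). The bands were chosen after the data were seen and are a description with no test. For consensus regions the same reading gave 16.7% of 14950 other regions and 2 of 20 Hox window regions up to the percentile of 20, and 51.9% of 18333 and 11 of 18 between 20 and 40.

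**Figure D4:**
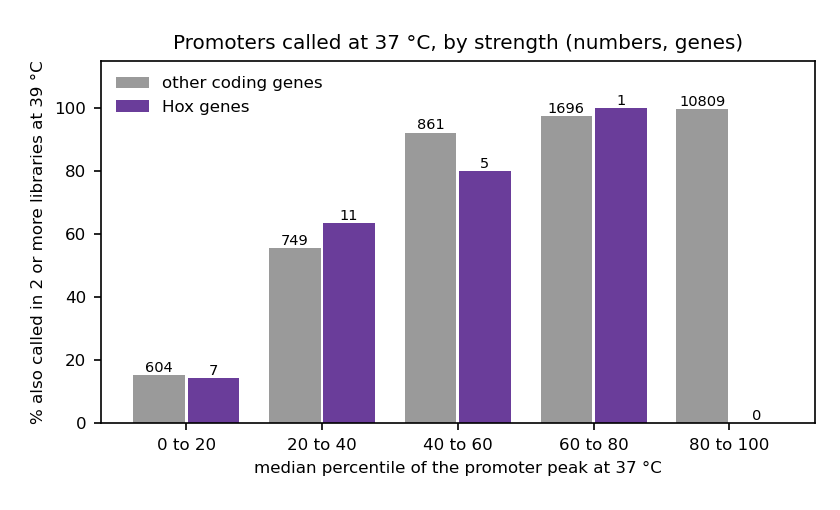
Share of genes open in at least 2 libraries at 37 °C that were also open in at least 2 at 39 °C (vertical axis, %), by the median percentile of their promoter peak at 37 °C (horizontal axis), for the 24 Hox genes (purple) and the other protein-coding genes (grey), with the number of genes above each bar. The shares were 15.4% and 14.3% in the weakest band, and no Hox gene lies in the top band.

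Of the 50 consensus regions, 16 (32.0%, against 52.9% of all consensus regions) were called in all 8 libraries: 3 in Hoxa, 6 in Hoxb, 7 in Hoxc and 0 in Hoxd. For these, strength was compared as the rank by −log10 q among the 44861 regions that all 8 libraries called, turned into a normal score, so that the length of a list does not enter. On this score 3 of the 16 were lower at 39 °C (18.8%, against 19.8% of the 44861) and 3 were higher (18.8%, against 18.3%) by limma with Benjamini-Hochberg adjustment over the 44861. The median difference was 0.02 over the 16 and -0.01 over all, so the shares stand near the background in both directions.

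All 3 lower regions and 2 of the 3 higher ones were in the Hoxc cluster. The region upstream of Hoxc12, chr15:102934506-102935942, had percentiles of 55.2, 50.7, 46.9 and 58.0 at 37 °C and 28.7, 29.7, 32.7 and 12.7 at 39 °C, groups that did not overlap. Its score fell by 0.53 ± 0.06 (SE, n = 4 against 4; limma adjusted p = 3.91e-04). A region 6571 bp downstream of the start of Hoxc12, chr15:102942816-102943705, between genes, had percentiles of 47.5, 37.3, 37.7 and 40.9 and then 8.89, 19.4, 13.1 and 6.14, and its score fell by 0.71 ± 0.17 (SE; limma adjusted p = 0.0134). The region over a coding exon of Hoxc4, chr15:103034465-103035738, whose percentiles are those given for the gene, fell by 0.42 ± 0.13 (SE; limma adjusted p = 0.0357). That call was lost without the 2 deep libraries (limma adjusted p = 0.0537) and without each of 37 °C replicates 1, 2 and 3 and 39 °C replicates 1 and 2 (up to 0.0904).

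The higher regions were at Hoxc13, Hoxa5 and Hoxc6, whose promoters were open in all 8 libraries, as was that of Hoxc4, which had a lower region. At Hoxc13, chr15:102920648-102922285, just upstream of the start, the score rose by 0.44 ± 0.08 (SE; limma adjusted p = 0.00400). At Hoxa5, chr6:52203448-52204720, over a coding exon, it rose by 0.32 ± 0.07 (SE; limma adjusted p = 0.00892), a call lost without the 2 deep libraries (0.0876). Both had lower median percentiles at 39 °C in the whole lists, 45.6 against 48.9 for Hoxc13 and 29.8 against 37.2 for Hoxa5, so the direction depends on whether a peak is ranked among all peaks of its list or among the shared regions. In an intron of Hoxc6, chr15:103002043-103003107, with percentiles of 28.1, 22.5, 19.4 and 35.8 and then 32.3, 33.1, 16.4 and 12.7, the score rose by 0.58 ± 0.18 (SE; limma adjusted p = 0.0341), a call lost without the 2 deep libraries (0.175) and without any 1 library other than 39 °C replicate 3 (adjusted p up to 0.0842). The score of the Hoxa7 promoter region differed by 0.03 ± 0.06 (SE; limma adjusted p = 0.705), that of the Gm53 intron by -0.06 ± 0.08 (0.584) and that of the region between Hoxc9 and Hoxc8 by 0.16 ± 0.06 (0.0803).

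**Figure D5:**
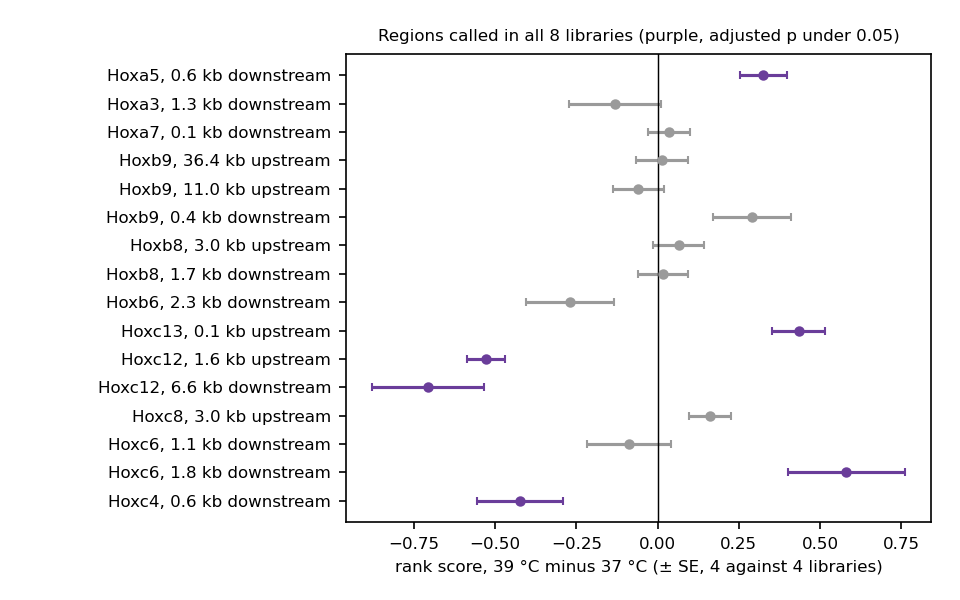
Difference in rank score, 39 °C minus 37 °C (horizontal axis, ± SE, 4 against 4 libraries), for the 16 Hox window regions called in all 8 libraries (rows, named by the nearest Hox start site and the distance of the summit from it), with adjusted p below 0.05 in purple. The 6 purple points run from -0.71 to 0.58, 3 on each side of 0.

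Width, the length covered by peaks within a region and set against the median of the 44861 regions of the library, gave no call among the 16 by limma (0 narrower, against 10.1%, and 0 wider, against 10.0%), with 4 below an unadjusted p of 0.05 and a smallest adjusted p of 0.0651. The log2 differences ran from -0.68 at the region upstream of Hoxc12, which covered 1294, 641, 439 and 1377 bp at 37 °C and 543, 451, 456 and 293 bp at 39 °C, to 0.34.

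Each cluster also had a strongest region, whose sequences are given above. The Hoxa7 promoter region, chr6:52221237-52222421, covered 873 to 1179 bp at 37 °C and 858 to 1028 bp at 39 °C. The Gm53 intron region, chr11:96260111-96262259, 10969 bp upstream of Hoxb9, had percentiles of 60.3, 56.0, 60 and 66.5 at 37 °C and 51.8, 48.0, 47.0 and 40.3 at 39 °C. Between Hoxc9 and Hoxc8, chr15:102986571-102988334 had 61.9, 59.7, 53.9 and 64.7 and then 55.1, 51.6, 53.5 and 50.3. In the Hoxd cluster the strongest, chr2:74715817-74716293, had 32.1, 31.6, 34.8 and 38.7 at 37 °C and was called at 39 °C in replicate 2 alone, at 9.04. The first 3 were thus open in every library, while the Hoxd region was open in every library at 37 °C and in 1 at 39 °C.

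Sequence near the summits set Hox regions apart from the rest mainly in base composition. Within 100 bp of the summit the 50 regions had a median GC content of 62.2% and a median CpG observed to expected ratio of 0.713, against 50.8% and 0.209 over all consensus regions. They also lay within 1 kb of a protein-coding start site more often, 27 of 50 (54.0%) against 21.6%, so promoters and composition move together. For CTCF, whose protein bounds chromatin loops and separates domains within Hox clusters, only sites with no mismatch to the consensus were counted. Sites that differ from the consensus were thus missed. A match was found at 1 of the 50 summits (2.00%, against 4.81%). It lay in chr11:96278480-96280099, a region whose summit is 2981 bp upstream of Hoxb8, called in all 8 libraries with percentiles of 58.0, 51.8, 54.3 and 61.6 at 37 °C and 48.6, 47.4, 43.6 and 40.3 at 39 °C. It is shown with the matched bases in capitals because it is the 1 match to this factor inside an open region of the windows.
CTCF match between Hoxb9 and Hoxb8, chr11:96278939-96278968, plus strand: gcacagtggCCGCTAGATGGCatccttgct
The PBX-HOX motif TGATTNAT was at 0 summits (4.04% of all), the posterior HOX motif TTTATNG at 2 (4.00%, against 5.82%) and the DR5 retinoic acid response element at 0 (0.124%), all on both strands and with no mismatch allowed. Over the whole windows the PBX-HOX motif had 99 matches, 3 of them in consensus regions, and the posterior HOX motif 418, 27 of them in consensus regions. The DR5 element had 7 matches in the 4 windows, 3 in Hoxa, 3 in Hoxb and 1 in Hoxd, and none lay in a consensus region. The RefSeq promoter table on GRCm38.p6, 300 bases per entry, held 22 of the 39 genes. Taking the highest value of a gene with several entries, their median CpG observed to expected ratio was 0.705, against 0.415 over the 27025 genes of the table.

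Of the 48 noncoding genes of the windows (genes not annotated as protein-coding or processed pseudogene), 16 had a promoter peak in at least 2 libraries at 37 °C, against 25.1% of the 23559 such genes of the genome. At 39 °C 5 had one in at least 2 libraries, against 20.9%, and 31 had none in any library, against 72.8%. Hotairm1, a noncoding RNA of the Hoxa cluster, was open in 4 libraries at 37 °C and 3 at 39 °C. Hottip, read from the Hoxa13 end, was open in 3 and 0, Hoxb5os in 3 and 0, Hoxd3os1 in 4 and 1, and the microRNA gene Mir615 in 4 and 2. Hotair, Hoxa11os, Haglr, Mir10a, Mir10b, Mir196b and Mir196a-2 had no peak in any library. Many of these starts lie beside a Hox promoter, so their calls can rest on the same peak.

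The genes of the cofactor, Polycomb, Trithorax and architecture lists were open in every library. All 9 cofactors of HOX proteins (the Pbx, Meis and Pknox genes), all 16 Polycomb genes, all 8 genes of the Trithorax group and H3K27 demethylases and all 3 architecture genes (Ctcf, Rad21 and Smc3) had a promoter peak in all 8 libraries, against 59.9% of all protein-coding genes. Of 9 upstream regulators, 5 did, and Rarb, a retinoic acid receptor that is itself a retinoic acid target, was open in 4 libraries at 37 °C and 3 at 39 °C. Cdx1, a caudal factor that activates posterior Hox genes, was open in 4 and 0. Cdx4 and Aldh1a2, which makes retinoic acid, were open in none. Of 8 neighboring genes, Skap2, Mtx2, Smug1 and Cbx5 were open in all 8 libraries, Ttll6 in 3 at 37 °C and 0 at 39 °C, and Evx1, Evx2 and Skap1 in none.

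Markers of the labelled type were open about as often as coding genes in general. Of 7 neural precursor markers 4 were open in all 8 libraries (against 59.9% of all protein-coding genes), Sox1 in 4 at 37 °C and 3 at 39 °C, and Sox3 and Fabp7 in none. Of the anterior brain genes, En1 and En2 were open in all 8, Lmx1a in 1 at 37 °C, and Otx2 in none. All 7 mesenchymal genes were open in all 8. A promoter peak is not expression, and the part of other cell types in these results was not tested.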

How the data were processed

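ATAC-seq was done on 8 libraries of SN4741 cells, 4 at each temperature. The authors aligned reads with Bowtie2 2.4.1, sorted and deduplicated them with SAMtools 1.15.1 and Picard 2.26.11, called peaks per library with MACS3 3.0.0a7 on mm10, and state that peaks over blacklisted regions were taken out with bedtools 2.30.0. The deposited lists number their peaks without gaps, so they appear to predate that step, and it was not repeated here. Per the file headers MACS3 used paired fragments, no control, no local background and q = 0.05. The deposited values are pileup signal, fold enrichment, −log10 p and −log10 q; pileup and −log10 p were not used. No read counts per region were used here, so no counting interval is given, and the depth behind a value is that of its library, 49.8 to 169 M fragments kept. With 1 background per library, fold enrichment and q rank peaks identically.

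Peaks were merged on 1 bp of overlap and kept as consensus regions when called in at least 2 libraries. Promoters were 1 kb around every annotated start site. Single values were compared by exact permutation tests, two-sided, and shared regions by limma 3.58.1 in R 4.3.3, with Benjamini-Hochberg adjustment. The limma script was tested on simulated data. Percentiles of −log10 q run within each list. Python 3.11.15, numpy 2.4.6, pandas 2.3.3, scipy 1.17.1 and pysam 0.24.0 were used. Base composition and motifs were read from the RefSeq sequence of GRCm38.p6.

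All 39 genes entered the counts; values of a few items are not reported here. Values in every library were given for genes whose calls differed by at least 2 libraries, for the strongest and weakest gene per cluster called in all 8, and for the best, restricted and significant regions; other genes with a call were added after their values were seen. The members and lists were chosen with earlier results of these data known. Prac1, a planned neighbor, was not analysed here. Alternatives were equal list lengths, leaving out deep or single libraries, a replicate block, other thresholds and another width scaling. Same-numbered libraries correlated at 0.12, -0.06, 0.08 and -0.06 in rank, so replicate numbers were not taken as pairs.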

Additional observations from a re-analysis of the deposited data

Results flagged for a closer look

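Among the 64 groups of 4 libraries examined, 0 had a highest or lowest library whose gap to the nearest other, as a share of the range of the group, exceeded Dixon's critical value, where chance would give 3.2, or 1 in 20.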

How the results depend on the processing

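Differences are 39 °C minus 37 °C. With equal numbers of peaks the difference in peaks was -1 (p = 0.629, exact permutation test) instead of -23, in covered length -3131 bp (0.0857) instead of -18242, in covered share 9.36 bp per Mb (0.371) instead of -87.5, and in Hox promoters -0.75 (0.571) instead of -10.2. Without the 2 deep libraries these were -17, -10333, -67.2 and -9, each at p = 0.0667, the smallest exact p that 2 against 4 allows. With a replicate block they kept their size at p = 0.125, the smallest exact p that 4 pairs allow. Leaving out 1 library gave -25.8 to -19.8 peaks, -22046 to -15521 bp, -99.4 to -76.1 bp per Mb and -11.6 to -9.25 promoters. The exact p rose to 0.0571 for length without any 1 library at 39 °C and for share without 39 °C replicate 4. With peaks of −log10 q of at least 5 the differences over all 4 windows were -16.75 peaks and -14331 bp, each at exact permutation p = 0.0286.

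Within clusters the direction turned with equal numbers for Hoxc peaks (0.5), Hoxc share (8.651) and Hoxb share (5.46), and for Hoxb share also without the deep libraries (1.87) and without 39 °C replicate 4 (0.329; -6.94 to 0.329 when 1 library was left out). With equal numbers, 8 Hox genes were open in at least 2 libraries at 37 °C, 6 at 39 °C, 25 in none, and 1 in at least 2 fewer. Using only the 5′ end of the gene record left 5 open in all 8 libraries. Regions called only at 37 °C numbered 1 at −log10 q of at least 5 and 0 with equal numbers, and 2 to 7 when 1 library was left out (4 without 37 °C replicate 2, 5 without 37 °C replicate 3, 7 without 39 °C replicate 3), and 1 was called only at 39 °C without the deep libraries, against 0 to 0 when 1 library was left out. With libraries left out the rule is easier to meet, so a rise in these counts follows from the rule.

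Rank calls were 2 to 4 lower and 2 to 3 higher when 1 library was left out, 1 higher without the deep libraries, and 2 lower and 3 higher with the replicate block, under which the Hoxc4 (limma adjusted p = 0.106) and Hoxc6 (0.0660) calls were lost. The 3 higher with the replicate block thus include a region that was not called in the main setting. The calls at Hoxc13 and both regions beside Hoxc12 were kept under every setting tried. Quantile-normalized widths gave 1 narrower and 1 wider region, and leaving out 1 library 0 to 1 of each. The causes were not tested. A region not called in a list is not shown to be closed.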
